A study of Homo sapiens with 4 samples.

Results

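The circadian clock genes examined here are CLOCK, ARNTL (also named BMAL1), PER1, PER2, PER3, CRY1, CRY2, NR1D1, NR1D2 and DBP. The table holds 64873 gene entries, and each of the 10 symbols was found in it. Where several entries named a symbol, the entry with the highest mean count over the 4 libraries was taken. Entries were thus chosen by their counts, and a high level of a chosen entry is no finding. The list was drawn up with earlier results of these libraries known, and the p-values below therefore describe these libraries and are not independent support for a pattern. RNA was sequenced from K562-U2AF1 S34F cells, that is, K562 erythroleukemia cells that overexpress the S34F mutant of the splicing factor U2AF1. The cells were given the solvent DMSO (2 libraries) or SF1-8, a small molecule directed at the U2AF1 protein, at 30 μM (2 libraries), in both cases for 48 h. Both groups carry the overexpressed mutant, and the labels give neither its promoter nor whether the line is a single clone. They also do not say whether the libraries come from separate cultures, so that the p-values measure the spread between these libraries, which may be technical.

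The clock runs as a feedback loop of transcription in nearly every cell type. CLOCK and ARNTL form a dimer that binds E-box motifs and activates the PER, CRY, NR1D and DBP genes. PER and CRY proteins return to the nucleus and repress that dimer, while the nuclear receptors NR1D1 and NR1D2 repress ARNTL and link the loop to metabolism. DBP, a transcription factor of the PAR bZIP family, carries the rhythm to output genes through D-box motifs. In a culture whose cells are not synchronised, bulk RNA gives an average over phases, and a single time point holds no rhythm.

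The libraries held between 45522905 and 67554610 counts, and DMSO 1 was the smallest. Entries of ribosomal RNA took 11% to 14.1% of the counts, with the highest share in DMSO 2 and the lowest in DMSO 1. The level of U2AF1 itself was 11.4 and 11.5 FPKM with DMSO and 11.9 and 12 FPKM with SF1-8. The mutant and the endogenous transcript are not told apart in these values. FPKM is a count of fragments scaled to length and library depth. The length taken for an entry of several transcripts is not given in the sources used here. In DMSO 1 the entry naming HBG1 had 84727 counts and 33.3 FPKM, while GATA1 had 6555 counts and 76.0 FPKM. FPKM may thus not be comparable between entries, which limits rankings and sums over genes. Markers of the erythroleukemia line were present. Their 9 entries summed to 372 and 367 FPKM with DMSO and to 336 and 360 FPKM with SF1-8. In FPKM, beside 20.0% of all entries tested, 4 of the 9 were lower in both SF1-8 libraries than in both DMSO libraries. Of these 4, GATA1 and KLF1 overlapped on the scale of normalized counts that the test used. Of 8 stromal or fibroblast markers, 7 were lower in both SF1-8 libraries than in both DMSO libraries, as were 20.0% of all entries tested. Their sum was 10.2 and 5.01 FPKM with DMSO and 2.57 and 0.594 FPKM with SF1-8, no marker was at 0 in every library, and their part in the results for the clock genes was not tested. T cell markers were lower in 2 of 4 cases (20.0% of all entries), with a sum of 6.14 and 5.18 FPKM against 4.44 and 4.25 FPKM. B cell markers, of which CD79A had at most 10 counts, were higher in 2 of 3 cases (14.2% of all entries). The B cell sum was 0.382 and 0.353 FPKM against 0.460 and 0.502 FPKM. Of 3 monocyte markers 1 was higher, and they summed to 5.84 and 4.23 FPKM with DMSO and 4.56 and 4.41 FPKM with SF1-8. Of 3 endothelial markers, VWF and CDH5 were at 0 in every library, and PECAM1 was at 1.17 and 1.08 FPKM with DMSO and 0.959 and 1.17 FPKM with SF1-8. In bulk RNA, fewer cells of a type and less RNA per cell cannot be told apart.

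Of the 10 clock genes, PER3 was the one that stood apart between SF1-8 and DMSO. Its level was about 1.85-fold higher with SF1-8 (95% interval 1.52 to 2.25), whereas the other 9 had log2 fold changes from -0.53 to 0.32. All 10 passed the filter on low counts, and 0 had an adjusted p under 0.05 in edgeR's quasi-likelihood test, against 0.0420% of the 26167 entries tested (0.0191% higher and 0.0229% lower). At an unadjusted p under 0.05 there was 1, PER3, and over all entries tested the share was 4.33%. With DESeq2 there was also 1, PER3, against 0.623% of all entries. The median log2 fold change was 0.00040 over the 10 genes and -0.011 over all entries tested, and 5 of the 10 were positive and 5 negative. The FPKM values of the groups did not overlap in 6 of the 10, with 2 genes higher (CLOCK, PER3; 14.2% of all entries) and 4 lower (ARNTL, PER1, CRY2, NR1D1; 20.0% of all entries). On the scale of counts normalized by TMM, which the test used, PER1 and NR1D1 overlapped.

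**Figure D1:**
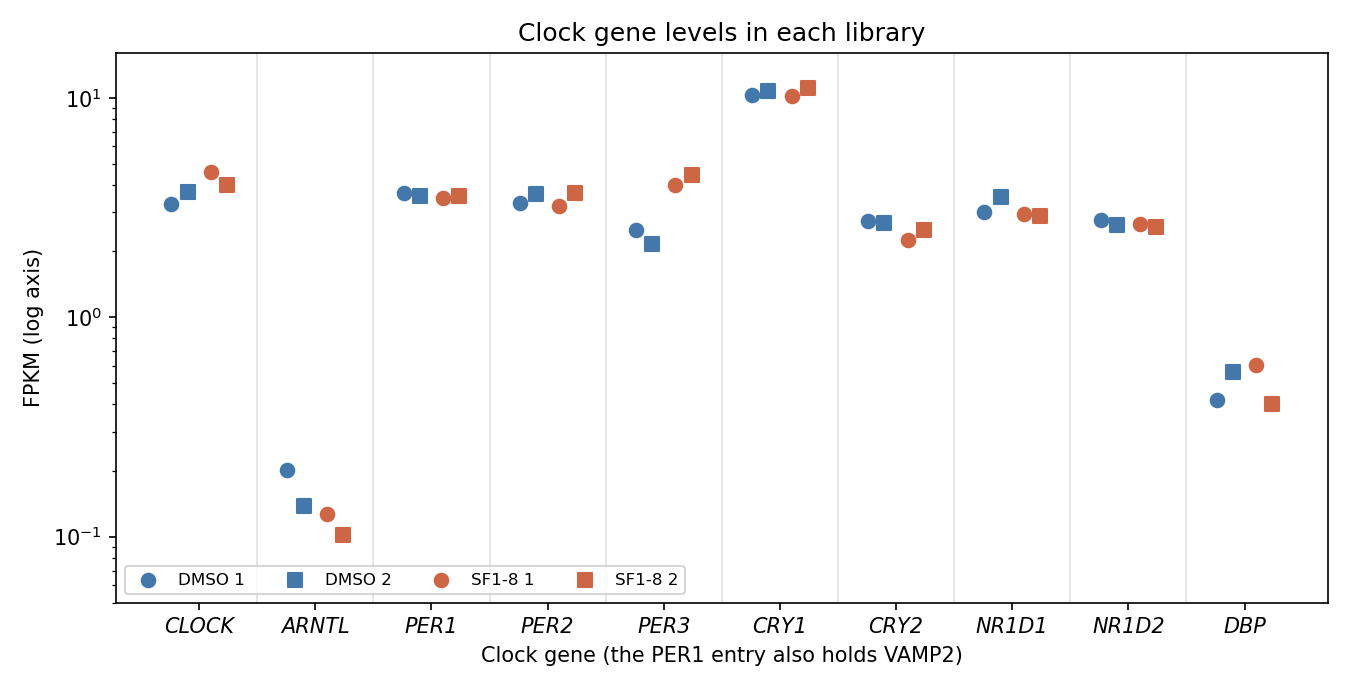
FPKM on a log axis of each clock gene in the 2 DMSO libraries (blue) and the 2 SF1-8 libraries (orange), with circles for replicate 1 and squares for replicate 2. PER3 lies at 2.50 and 2.15 with DMSO and at 4.01 and 4.44 with SF1-8, CRY1 is the highest of the genes, and ARNTL and DBP are the lowest.

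In FPKM, CRY1 was the highest clock gene in all 4 libraries, at 10.2 to 11.1 FPKM. The PER1 entry, CLOCK, PER2 and NR1D1 followed in the DMSO libraries with group means of 3.62, 3.51, 3.47 and 3.26 FPKM. Neighbours in this order overlapped between the DMSO libraries. With SF1-8, CLOCK lay above both the PER1 entry and PER2, and PER2 above NR1D1, in both libraries. CRY2 and NR1D2 came next, at 2.72 and 2.71 FPKM, and were likewise not separated. PER3 lay below them at 2.33 FPKM with DMSO, and above both at 4.23 FPKM with SF1-8. The genes at the bottom of the order were DBP, at 0.400 to 0.608 FPKM, and ARNTL, at 0.102 to 0.202 FPKM, and these were separated from each other and from the rest in both groups. The level of ARNTL was thus far below that of its partner CLOCK in each library. By counts the order differed in part. In SF1-8 1, CLOCK had 4432 counts and CRY1 had 4075.

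PER3 encodes one of the PERIOD repressors, which is considered less essential for the rhythm than PER1 and PER2. Its entry spans chr1:7784320-7845177 on the plus strand of GRCh38, the same range as the gene in GENCODE version 29, and holds 13 transcripts, of which 4 were assembled from the reads and carry no Ensembl name. With DMSO the level was 2.50 FPKM in library 1 and 2.15 FPKM in library 2, and with SF1-8 it was 4.01 FPKM and 4.44 FPKM. Both SF1-8 libraries were well above both DMSO libraries, and the gap between groups was several times the gap within either. The group values were 2.33 ± 0.244 FPKM (SD, n = 2) and 4.23 ± 0.305 FPKM (SD, n = 2). The underlying counts were 1206 and 1453 against 2796 and 2989. On the log2 scale the difference was 0.89 (standard error 0.111), with an adjusted p of 0.256 over all entries in edgeR's test. PER3 had the 44th smallest p of the 26167 entries, and 4.75% of entries had a log2 fold change at least as high. DESeq2 gave 0.89 (standard error 0.152) with an adjusted p of 2.38e-06. The call thus depended on the tool, while both tools gave the same size. With 2 libraries a group, 0.333 is the smallest p that a two-sided exact permutation test allows, for any gene.

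**Figure D2:**
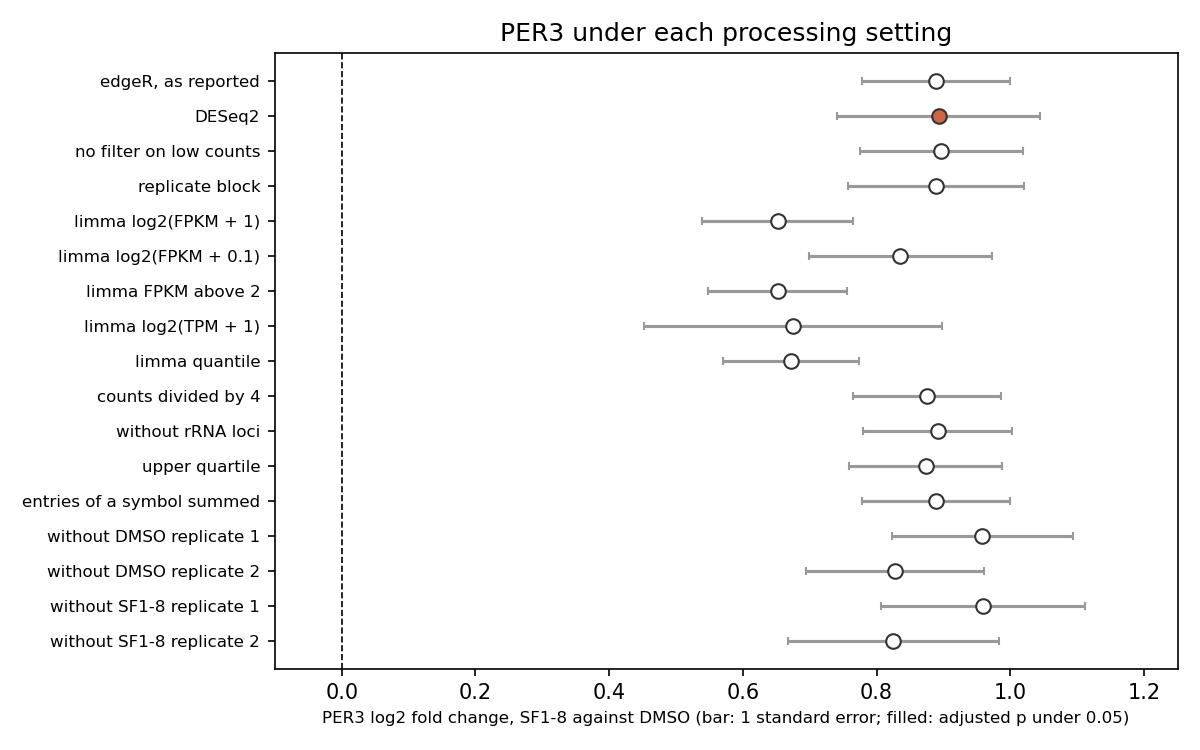
PER3 log2 fold change (SF1-8 against DMSO, points) with 1 standard error (bars) in the reported edgeR fit and under each of 16 other processing settings, with filled points for an adjusted p under 0.05. The values run from 0.65 to 0.96, all above 0, and DESeq2 alone has an adjusted p under 0.05.

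A ratio of 2 genes within a library does not depend on how that library was scaled. The ratio of PER3 to PER2 was 0.756 and 0.594 with DMSO and 1.249 and 1.205 with SF1-8. In FPKM, and also in counts, PER2 was the higher of the pair with DMSO, and PER3 with SF1-8. The ratio of PER3 to CRY1 was 0.243 and 0.20 with DMSO and 0.394 and 0.402 with SF1-8. Against each of the other 9 clock genes, both ratios with SF1-8 were above both ratios with DMSO. All of these ratios share the PER3 values and are not separate observations. The gap was narrowest for CLOCK, with 0.762 and 0.577 against 0.874 and 1.10, and for DBP, with 5.98 and 3.83 against 6.59 and 11.1.

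**Figure D3:**
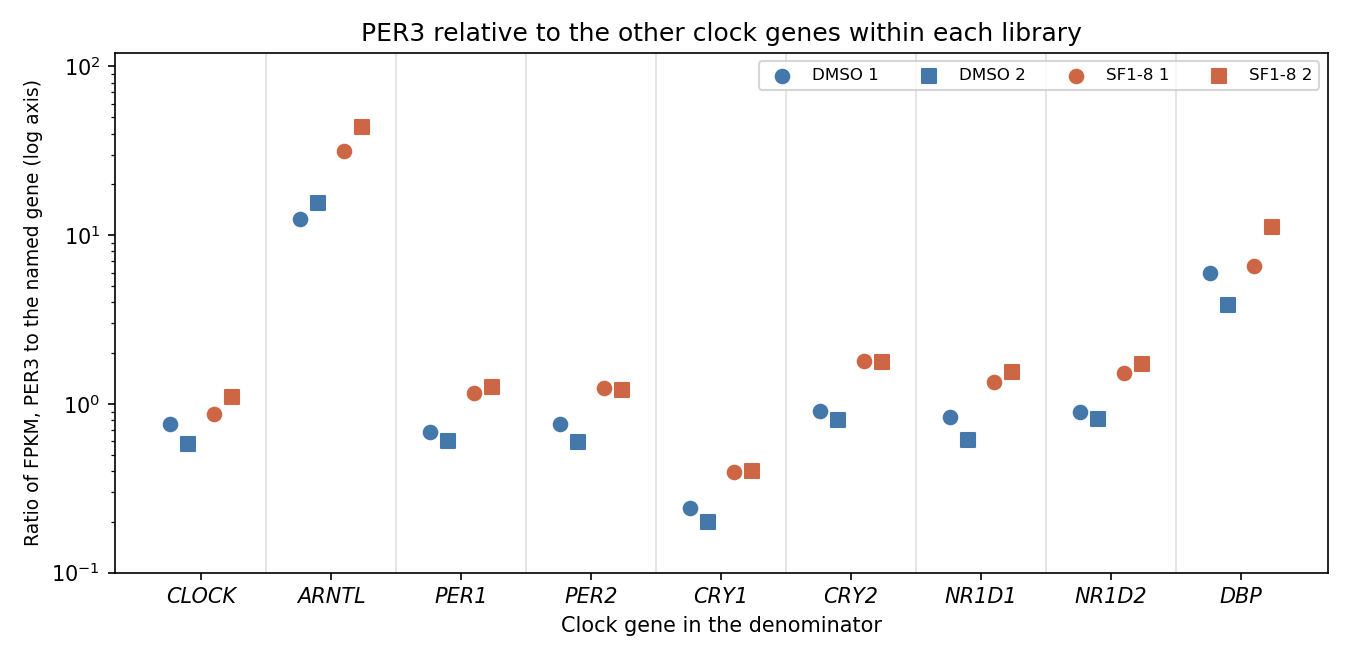
Ratio of the FPKM of PER3 to that of each other clock gene (log axis) in every library, with DMSO in blue, SF1-8 in orange, circles for replicate 1 and squares for replicate 2. The orange points lie above the blue points for all 9 genes, for example 1.249 and 1.205 against 0.756 and 0.594 for PER2.

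The promoters of PER3 and its paralogs PER1 and PER2 are shown side by side. A link between their motifs and the values above was not tested. They are taken from RefSeq on GRCh38 and run 5′ to 3′ from 250 bases before the start of the gene to 50 bases after it. Capitals mark the motifs searched on both strands: the E-box CACGTG, its variant CACGTT, the D-box TTATGTAA, the nuclear receptor half-site AGGTCA and the cAMP response element TGACGTCA. The windows are chr1:7784041-7784340 (plus strand) for PER3, chr17:8152355-8152654 (minus strand) for PER1 and chr2:238288561-238288860 (minus strand) for PER2.
PER3: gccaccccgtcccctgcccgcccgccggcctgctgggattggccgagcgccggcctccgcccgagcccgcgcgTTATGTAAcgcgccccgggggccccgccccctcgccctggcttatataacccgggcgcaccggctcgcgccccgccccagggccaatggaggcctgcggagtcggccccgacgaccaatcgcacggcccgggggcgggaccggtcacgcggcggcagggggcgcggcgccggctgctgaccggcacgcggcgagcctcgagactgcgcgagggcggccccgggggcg
PER1: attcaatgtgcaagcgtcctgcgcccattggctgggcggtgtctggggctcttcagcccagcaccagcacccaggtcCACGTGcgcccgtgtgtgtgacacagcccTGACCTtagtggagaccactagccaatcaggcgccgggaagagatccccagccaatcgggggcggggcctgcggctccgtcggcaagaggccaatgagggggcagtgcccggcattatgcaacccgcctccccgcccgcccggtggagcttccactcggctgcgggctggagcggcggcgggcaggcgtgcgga
PER2: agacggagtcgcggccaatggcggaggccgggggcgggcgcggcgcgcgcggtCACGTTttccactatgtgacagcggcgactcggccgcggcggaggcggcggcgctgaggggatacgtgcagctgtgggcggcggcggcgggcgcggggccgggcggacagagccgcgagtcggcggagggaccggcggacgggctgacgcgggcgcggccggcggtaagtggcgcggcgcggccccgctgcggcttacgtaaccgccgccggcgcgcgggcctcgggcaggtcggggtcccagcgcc
In the PER3 window there was a D-box that begins 177 bases before the start and no E-box, variant or response element. The table gives PER3 another start further downstream, whose window (chr1:7784179-7784478) overlaps this one and held none of the motifs. The PER1 window had an E-box at 173 bases and a half-site, as TGACCT, at 144 bases before the start. That of PER2 had the variant at 197 bases before the start. All 10 genes had a window in the RefSeq table, 15 windows in all, with ARNTL found under its current symbol BMAL1. The E-box was in 2 of the 10 genes (PER1, NR1D2) and in 8.77% of the 27305 genes of the table, which have 35116 windows, or 7.26% of those windows. Its variant was in 5 of the 10 (6.44% of all genes), and the half-site in 3 (16.5%). The D-box was in 2 (PER3, NR1D2), against 1.13% of all genes, and the response element in 0, against 2.25%. The clock genes have more windows per gene than the table as a whole, which gives each motif more places to occur. Most of their windows were also richer in the bases G and C than the median of 58.7% over all windows. They ran from 46.3% (CRY2) to 81% (PER3), and only a CRY2 and an ARNTL window lay below that median. The part of base content in the motif counts was not tested. Only these exact spellings were searched, and near matches, such as TTACGTAA in the PER2 window, were not counted. These matches are letters in short windows, and binding was not measured.

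PER1, the PERIOD gene that responds fastest to stimuli, could not be measured alone. Its entry (chr17:8140472-8162948, minus strand) also names the microRNA MIR6883, AC129492 and VAMP2, the last of which encodes a synaptobrevin of vesicle fusion. The level of the joint entry was 3.67 and 3.57 FPKM with DMSO and 3.48 and 3.55 FPKM with SF1-8. All 4 values lay close together, and the log2 fold change was -0.015 (95% interval -0.23 to 0.20). A change of PER1 offset by one of VAMP2 would not be seen. Another 2 short entries of 249 and 309 bases named PER1 and had at most 67 counts.

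PER2, whose protein is the limiting repressor of the loop in many tissues, has an entry at chr2:238244044-238288702 on the minus strand. Its level was 3.31 and 3.63 FPKM with DMSO and 3.21 and 3.68 FPKM with SF1-8. The groups overlapped, with the lowest and the highest value both in SF1-8 libraries. The log2 fold change was 0.015 (95% interval -0.32 to 0.35, adjusted p = 0.995 in edgeR's test). Its sign changed with the setting.

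**Figure D4:**
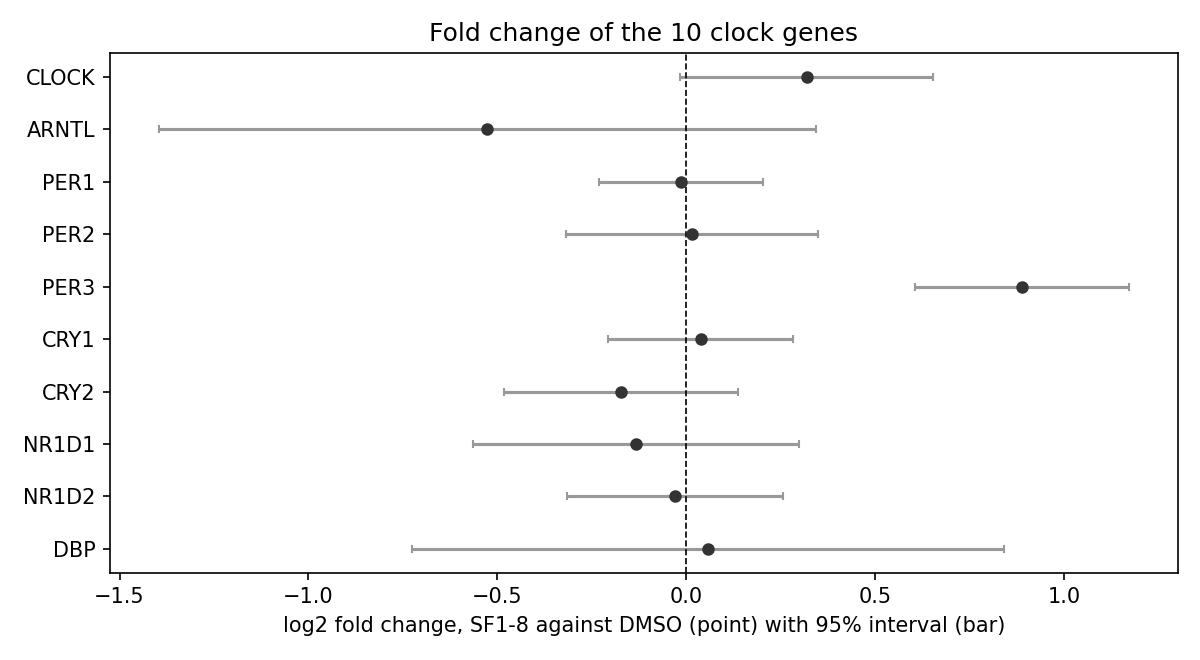
Log2 fold change (SF1-8 against DMSO, points) with its 95% interval (bars) for the 10 clock genes in the edgeR fit. The interval of PER3 runs from 0.61 to 1.17, and each of the other 9 intervals contains 0.

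The cryptochromes CRY1 and CRY2 encode the strongest repressors of the CLOCK and ARNTL dimer. CRY1 (chr12:106991364-107093549, minus strand) was at 10.3 and 10.8 FPKM with DMSO and at 10.2 and 11.1 FPKM with SF1-8. These values overlapped, and the log2 fold change was 0.038 (95% interval -0.21 to 0.28). CRY2 (chr11:45847118-45883247, plus strand) was at 2.75 and 2.70 FPKM with DMSO and at 2.24 and 2.51 FPKM with SF1-8. Both treated libraries were lower, and the log2 fold change was -0.17 (95% interval -0.48 to 0.14, adjusted p = 0.970 in edgeR's test), or -0.093 without SF1-8 1.

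The activators had values of opposite sign, and neither passed the test. CLOCK (chr4:55427903-55546909, minus strand), which encodes a DNA-binding activator of the bHLH-PAS family, was at 3.28 and 3.74 FPKM with DMSO and at 4.59 and 4.02 FPKM with SF1-8. The SF1-8 libraries were higher, but the nearest libraries of the 2 groups were closer to each other than the libraries within a group. Its log2 fold change was 0.32 (95% interval -0.015 to 0.65, adjusted p = 0.970 in edgeR's test). Leaving out 1 library gave 0.19 (without DMSO 1), 0.46 (without DMSO 2), 0.22 (without SF1-8 1) and 0.42 (without SF1-8 2). Another 5 entries of 200 to 1356 bases with no strand named CLOCK and lay within the span of the gene. They had between 149 and 251 counts per library in all, and with them added CLOCK had a value of 0.29.

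ARNTL (chr11:13276652-13387266, plus strand) encodes the obligate partner of CLOCK. It was at 0.202 and 0.138 FPKM with DMSO and at 0.127 and 0.102 FPKM with SF1-8, on counts of 83, 80, 76 and 59. Both SF1-8 libraries were lower, but DMSO 2 and SF1-8 1 nearly met. The log2 fold change was -0.53 (95% interval -1.40 to 0.34, adjusted p = 0.970 in edgeR's test) and -0.28 without DMSO 1. As a ratio, the interval runs from 0.380 to 1.27. The level of CLOCK and ARNTL together was 3.48 and 3.87 FPKM with DMSO and 4.72 and 4.12 FPKM with SF1-8. Nearly all of this sum was CLOCK. The 8 E-box targets together were at 28.7 and 29.5 FPKM with DMSO and at 29.3 and 31.1 FPKM with SF1-8. Without PER3, the other 7 summed to 26.2 and 27.4 FPKM with DMSO and 25.3 and 26.7 FPKM with SF1-8, and the groups overlapped in both sums. Both sums hold the joint PER1 entry, which also names VAMP2, and CRY1 weighs most in them.

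NR1D1 and NR1D2 encode heme-binding nuclear receptors that repress transcription. NR1D1 (chr17:40092793-40100589, minus strand) was at 3.0 and 3.52 FPKM with DMSO and at 2.96 and 2.89 FPKM with SF1-8. The SF1-8 libraries were lower by a small margin, and DMSO 2 stood above the other 3 libraries. The log2 fold change was -0.13 (95% interval -0.56 to 0.30) and turned to 0.037 without DMSO 2. NR1D2 (chr3:23945286-23980617, plus strand) was at 2.78 and 2.64 FPKM with DMSO and at 2.65 and 2.57 FPKM with SF1-8. The groups overlapped, and the log2 fold change was -0.029 (95% interval -0.32 to 0.26).

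DBP (chr19:48630030-48637379, minus strand), an output gene with one of the widest daily swings in many tissues, was at 0.418 and 0.563 FPKM with DMSO and at 0.608 and 0.400 FPKM with SF1-8. The highest and the lowest value were both in SF1-8 libraries. The log2 fold change was 0.059 (95% interval -0.73 to 0.84), and leaving out 1 library moved it between -0.28 and 0.34. The data thus do not limit a change of DBP well.

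Genes on the opposite strand reach into several of these entries, and the sources used here do not state whether strand was used in counting. THRA, which encodes a thyroid hormone receptor, overlaps the 3′ end of NR1D1 by 1075 bases. It was at 4.62 and 4.53 FPKM with DMSO and at 6.59 and 5.61 FPKM with SF1-8. The difference on the log2 scale was 0.44 (standard error 0.114, adjusted p = 0.970 in edgeR's test and 0.326 in DESeq2). NKIRAS1, which encodes a small GTPase-like inhibitor of NF-κB signalling, overlaps the 5′ end of NR1D2 by 1306 bases. It was at 3.91 and 2.12 FPKM with DMSO and at 1.06 and 1.20 FPKM with SF1-8. For NKIRAS1 the difference was -1.37 (standard error 0.291, adjusted p = 0.868 in edgeR's test and 0.00354 in DESeq2), or -0.92 without DMSO 1. NR1D1 and NR1D2 themselves had values of -0.13 and -0.029, and the part of these neighbours in them was not tested. SPHK2, which encodes a sphingosine kinase, meets the 3′ end of DBP over 688 bases, and its log2 fold change was -0.14. Within PER3 lies the antisense gene Z98884.1 with 0.707 and 0.608 FPKM with DMSO, 0.318 and 0.432 FPKM with SF1-8, and counts of 23 to 41. Its values were thus lower with SF1-8, where PER3 was higher, with a log2 fold change of -0.76 (adjusted p = 0.970 in edgeR's test). UTS2, which overlaps the other end of PER3, had no counts in any library, nor had AC078929.1 at CRY1. By annotation, TMEM165 also overlaps CLOCK over 25495 bases, and AC012485.1 overlaps PER2 over 11590 bases. The TMEM165 entry of the table ends short of the CLOCK entry, and it was at 12.7 and 10.4 FPKM with DMSO and 10.6 and 11.8 FPKM with SF1-8, with a log2 fold change of -0.013. AC012485.1 had 22 and 28 counts with DMSO and 23 and 2 counts with SF1-8. On the same strand as the clock gene, the small RNA copy RN7SKP151 within ARNTL had at most 3 counts. Also on the same strand, the small RNA copy RN7SKP30 within CLOCK had 14 to 60 counts and a log2 fold change of -0.23.

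The remainder of the clock network was followed through 45 genes in 10 lists, of which 44 were in the table and 39 passed the filter on low counts. By edgeR's quasi-likelihood test, 0 of the 39 had an adjusted p under 0.05 in either direction, and 3 (CREB1, CSNK1A1 and WEE1) had an unadjusted p under 0.05, where the shares of all entries were 0.0420% and 4.33%. DESeq2 called 1, CREB1, against 0.623% of all entries. The median log2 fold change of the 39 was 0.058, beside -0.011 over all entries, with 28 positive and 11 negative values. The groups did not overlap in 10 of them, 7 higher and 3 lower, which was 25.6% of the 39 against 34.2% of all entries.

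Among the transcription factors of the loop, the CLOCK paralog NPAS2 had 4 counts in a single library and was not tested. The ARNTL paralog ARNTL2 was at 0.147 and 0.0977 FPKM with DMSO and at 0.0827 and 0.0930 FPKM with SF1-8, as low as ARNTL, with a log2 fold change of -0.44 (95% interval -1.40 to 0.52), or -0.17 without DMSO 1. Of the ROR receptors, which oppose NR1D1 and NR1D2, RORA had a log2 fold change of -0.19. Its entry also names AC009560, and its level was at most 0.136 FPKM. RORB had no counts. Of the D-box factors, HLF had the lowest value, at -0.39 on 23 to 31 counts. NFIL3, which competes with DBP for D-boxes, was far more abundant, at 4.35 and 4.65 FPKM with DMSO and 4.65 and 4.6 FPKM with SF1-8, and its log2 fold change was 0.062. The E-box repressor BHLHE40 was the most abundant of the loop's transcription factors, at 23.2 to 25.1 FPKM, with a log2 fold change of 0.061 (95% interval -0.13 to 0.25). BHLHE41 and CIART had at most 12 and 23 counts in a library and were not tested. TIMELESS and TIPIN, which act together at the replication fork, had values of 0.065 and 0.10.

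The casein kinases and GSK3B mark PER and CRY proteins for turnover. In this list of 7, 6 values were positive, from CSNK1E at 0.22 downward, and CSNK1D was at -0.079. CSNK1E shares its entry with TPTEP2, and its value was -0.070 without SF1-8 1. CSNK1A1, named here after its value was seen, was at 8.66 and 8.77 FPKM with DMSO and at 9.78 and 9.92 FPKM with SF1-8. Its log2 fold change was 0.20 (adjusted p = 0.970 in edgeR's test). Of 6 ubiquitin ligase subunits and deubiquitinases tested, CUL1 had the highest value at 0.20 and SKP1 the lowest at -0.060, the latter in an entry that also names PPP2CA and CDKL3. The corepressor list ranged from 0.038 for HDAC3 to 0.058 for SIRT1.

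The CRE pathway list holds the factors through which cAMP signals induce PER1. CREB1 was at 4.07 and 3.56 FPKM with DMSO and at 1.17 and 1.34 FPKM with SF1-8. It had the largest difference of all genes in these lists, with a log2 fold change of -1.56 and an adjusted p of 0.0556 in edgeR's test and 4.07e-21 in DESeq2. Over the other settings its log2 fold change ran from -1.65 to -1.04. Its adjusted p was 0.00729 in edgeR with no filter on low counts and ran up to 0.514, in limma on log2(FPKM + 1). Its relative ATF1 was at 11.7 and 10.7 FPKM with DMSO and 12.7 and 12.4 FPKM with SF1-8. CRTC3, a coactivator of CREB1, had the highest value of the list at 0.26, but DMSO 1, with 2.29 FPKM, stood below the 3.41 to 3.65 FPKM of the other libraries, and without it the value was -0.066. The PER1 entry, which also names VAMP2, was at -0.015 as given above, and a link between CREB1 and PER1 was not tested.

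In the list of clock-controlled outputs, WEE1, which encodes a kinase that holds back mitosis, was at 7.05 and 6.64 FPKM with DMSO and at 11 and 8.06 FPKM with SF1-8. The SF1-8 libraries were higher and differed from each other more than the DMSO libraries did. On the log2 scale it was higher by 0.51 (standard error 0.162, adjusted p = 0.970 in edgeR's test), or by 0.26 without SF1-8 1. CDKN1A, a cell cycle inhibitor, was at 0.838 and 0.546 FPKM with DMSO and at 0.642 and 0.263 FPKM with SF1-8. The groups overlapped, and its value was -0.57, with -1.36 without SF1-8 1 and -0.057 without SF1-8 2. NAMPT, the enzyme that limits NAD synthesis, was at 17.4 to 19.8 FPKM with a log2 fold change of 0.063.

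**Figure D5:**
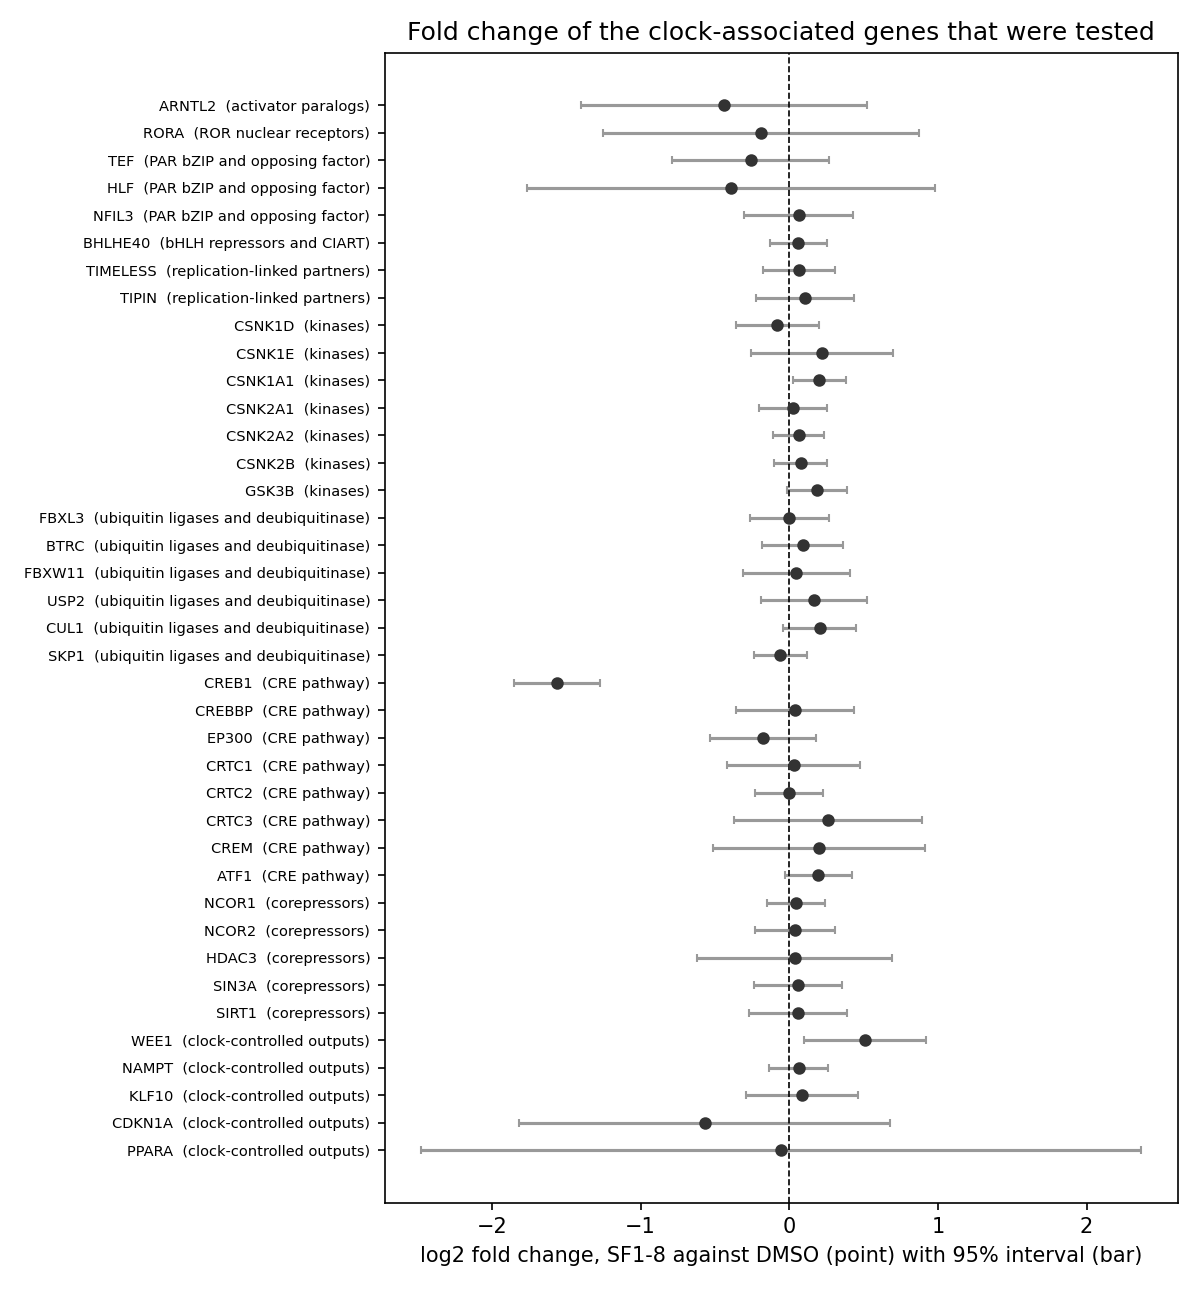
Log2 fold change (SF1-8 against DMSO, points) with its 95% interval (bars) for the 39 clock-associated genes that passed the filter on low counts, with the list of each gene in brackets. CREB1 lies at -1.56, WEE1 at 0.51 and most of the others near 0.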

How the data were processed

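Total RNA of K562-U2AF1 S34F cells was depleted of ribosomal RNA and sequenced in 4 libraries. The submitters' processing notes name cutadapt, FastQC, Bowtie2, HISAT2 and StringTie and the build hg38, without roles or settings. The authors deposited FPKM values, normalized for length and depth, and estimated counts per gene entry, given as whole numbers. An FPKM of 0.0001, deposited where the count is 0, was read as 0. How the counts were made is not given in the sources used here, and 4 is the commonest count above 0, so that a count may not be 1 read, and no counting error was computed. The 2095 entries without a gene name (0.372% of counts) were left out.

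Counts were filtered (filterByExpr), normalized by TMM and tested with edgeR 4.0.16 (quasi-likelihood, Benjamini-Hochberg adjustment over 26167 entries) in R 4.3.3. The 95% intervals come from that fit and are not adjusted. Alternatives used DESeq2 1.42.0, limma 3.58.1 on log2 values of FPKM or TPM, other scalings and filters, and fits without 1 library. The clock genes and lists were chosen with earlier results of these data known. Named were the 10 genes, any list gene past an adjusted p of 0.05, the largest positive and negative value of each list, genes that overlap a clock gene, and U2AF1, and a few further list genes were named after their values were seen. No genes of like pattern were ranked on 4 libraries. Promoters come from RefSeq (GRCh38), gene positions from GENCODE version 29. FBXL21 was not analysed here. One listed gene is not reported here.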

Additional observations from a re-analysis of the deposited data

How the results depend on the processing

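With 2 libraries per group, precision is limited by the spread between replicates. PER3, CLOCK, ARNTL and CRY2 kept their direction under each setting in which they were tested. The adjusted p of PER3 lay between 2.38e-06 in DESeq2 and 0.858 in limma on TPM. Log2 fold changes ran from 0.65 to 0.96 for PER3 and from 0.15 (TPM) to 0.46 for CLOCK. For ARNTL they ran from -0.73 to -0.052 (quantile normalization), and for CRY2 from -0.31 (TPM) to -0.093. DESeq2 called 163 entries and 1 clock gene, PER3, with a log2 fold change of 0.89. The number of entries called was 31 with no filter on low counts, 1 in limma with FPKM above 2 and 1 in limma on TPM, and 0 in limma on log2(FPKM + 1), on log2(FPKM + 0.1) and after quantile normalization, where 1493, 1499 and 1498 entries had an unadjusted p under 0.05. The causes were not tested. With TPM the median was -0.15 for the clock genes and -0.13 for all entries, and signs are to be read against that shift. TPM turned PER2 to -0.14, CRY1 to -0.12, DBP to -0.069, NFIL3 to -0.091, BHLHE40 to -0.10, TIPIN to -0.052, SIRT1 to -0.099, HDAC3 to -0.11, TIMELESS to -0.092, NAMPT to -0.098 and U2AF1 to -0.074. PER2 was -0.0078 in limma on log2(FPKM + 1), also with FPKM above 2, and -0.010 on log2(FPKM + 0.1). CRY1 was -0.0014 after quantile normalization. ARNTL and DBP had no FPKM above 2.

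Leaving out each library in turn gave 0 to 30 entries called (0 without DMSO 1, where 1341 had an unadjusted p under 0.05, 21 without DMSO 2, 30 without SF1-8 1 and 28 without SF1-8 2), 0 clock genes called and a median of -0.060 to 0.078. The ranges were 0.82 to 0.96 for PER3, 0.19 to 0.46 for CLOCK, -0.73 to -0.28 for ARNTL, -0.25 to -0.093 for CRY2, -0.034 to 0.010 for PER1, -0.087 to 0.13 for PER2, -0.032 to 0.12 for CRY1, -0.28 to 0.037 for NR1D1, -0.055 to 0.0051 for NR1D2 and -0.28 to 0.34 for DBP. Where 1 library was left in a group, it was assumed to vary like the other group. Of the other genes, those whose sign changed ranged from -0.63 to 0.44 (RORA), -0.023 to 0.16 (NFIL3), -0.066 to 0.69 (CRTC3), -0.19 to 0.041 (CSNK1D), -0.061 to 0.19 (SIRT1), -0.070 to 0.47 (CSNK1E), -1.59 to 0.46 (RN7SKP30), -0.30 to 0.018 (SPHK2), -0.23 to 0.37 (HDAC3), -0.030 to 0.17 (TIMELESS) and -0.11 to 0.098 (TMEM165). Those that kept their sign but moved by over 1.5 times ranged from -0.67 to -0.17 (ARNTL2), 0.020 to 0.11 (BHLHE40), 0.0047 to 0.22 (TIPIN), 0.0086 to 0.12 (NAMPT), 0.097 to 0.32 (CUL1), -0.11 to -0.0029 (SKP1), 0.26 to 0.73 (WEE1), -1.36 to -0.057 (CDKN1A), 0.040 to 0.14 (U2AF1) and -3.76 to -0.36 (AC012485.1).

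The labels give no link between libraries of the same number beyond the number itself. Their deviations from the group means had a correlation of 0.0165 over entries, and the fit with the replicate number as a block called 0 entries (971 at an unadjusted p under 0.05) and gave PER3 a log2 fold change of 0.89 with an adjusted p of 0.535.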
